A study of Rattus norvegicus with 8 samples.

Results

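The diaphragm of sham-operated rats was described from 4 RNA-seq libraries, 1 per animal, of the 8 in the series. The 4 were chosen by their treatment label, Sham, and carry the replicate numbers 5 to 8. They came from Sprague-Dawley rats whose chest was opened on the left under isoflurane, with mechanical ventilation and removal of the pericardium, and whose left anterior descending coronary artery was left untied. The tissue was taken 16 weeks after that operation, so "baseline" here means a sham-operated animal and not an animal without surgery. The other 4 rats, in which the artery was tied to cause myocardial infarction (MI), were not used, and no comparison with them was made. The labels give no sex or body weight and do not say whether costal or crural muscle was sampled.

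The diaphragm is the main muscle of inspiration and contracts throughout life. Its fibres are classed by the myosin heavy chain they hold: slow type I fibres with Myh7, and fast type IIA, IIX and IIB fibres with Myh2, Myh1 and Myh4. Slow fibres also use their own troponins, light chains and calcium pump, so most contractile proteins exist in a slow and a fast form. The sheet of muscle is covered by mesothelium on its thoracic and abdominal faces, ends in a central tendon, and holds capillaries, connective tissue cells, nerve and resident immune cells.

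The 4 libraries held 7941402 to 24967251 counts, with at least 1 count in 12317 to 13055 genes. Levels are given as CPM, counts per 1000000 counts of a library, after TMM scaling, which corrects for differences in library composition, and a series of 4 values follows the order of replicates 5, 6, 7 and 8. A mean of at least 1 CPM was reached by 10190 genes, at least 100 CPM by 1421, at least 1000 CPM by 131 and at least 10000 CPM by 8. CPM is not divided by transcript length, so a long transcript draws more counts than a short one at the same number of molecules. An order of genes by CPM is therefore an order of read numbers. A count of 3, taken as the floor, was worth 0.116 to 0.369 CPM depending on the library. Nothing says more of the animals' housing or litter, and errors below are SD over the 4 animals (n = 4).

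Among the genes with a row, contractile and energy genes took the largest shares of the counts. No row was found for the muscle genes Ttn, Neb and Ryr1, so they could not be ranked. The 10 most abundant genes held 16.6% to 19.3% of each library and the 100 most abundant 42.8% to 45.6%. Acta1, skeletal muscle alpha-actin, was first, with 45586, 52956, 41258 and 49808 CPM, a mean of 47402 ± 5088 CPM. Ckm, the creatine kinase that regenerates ATP in the sarcomere, followed with 32786, 37649.7, 30213 and 31943 CPM. In both genes replicate 6 was highest and replicate 7 lowest, and the 4 values lay within a 1.28-fold range. Slc25a4, the carrier that exchanges ADP and ATP across the mitochondrial inner membrane, came next at 14420.4 ± 636 CPM, with 15327, 14393, 14031 and 13930.5 CPM. Its highest value was 1.10 times its lowest.

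The rest of the first 30 fall into a few roles. Thin filament genes were Tnnt3 (11889 CPM), Tpm1 (11055 CPM), Tnnc2 (7868 CPM), Tpm2 (6568 CPM), Tnni2 (6441 CPM), Tpm3 (6174 CPM) and Tnnt1 (4448 CPM), which encode troponins and tropomyosins. Thick filament genes were Myh1 (12648 CPM), Myl1 (7949.9 CPM), Mybpc1 (6122 CPM), Myh2 (5726 CPM) and Myh7 (4652 CPM), and Actn2 (4351 CPM), Fhl1 (6991 CPM) and Xirp2 (4232 CPM) encode proteins of the Z-disc and its surroundings. Glycogen and glucose breakdown was represented by Aldoa (13279 CPM), Eno3 (9165 CPM), Pygm (6929.7 CPM), Gapdh (4738 CPM) and Ldhb (4220.4 CPM). Mitochondrial energy genes were the ATP synthase subunits Atp5b (8201 CPM) and Atp5a1 (6336 CPM), the mitochondrial creatine kinase Ckmt2 (4753 CPM), the fatty acid dehydrogenase Acadm (4308 CPM) and the citrate cycle enzyme Idh2 (4218 CPM). The last 2 of the 30 are the calcium pump Atp2a1 (12048 CPM) and the oxygen store Mb, myoglobin (7727 CPM).

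Over the 30 most abundant genes the highest library was 1.07 to 1.97 times the lowest. Their median of 1.30 was close to the 1.31 of all genes averaging 1 CPM or more and above the 1.198 of those averaging 100 CPM or more, so they were not steadier than the typical gene. None of them reached 2 times, whereas 12.0% of all genes averaging 1 CPM or more and 4.54% of those averaging 10 CPM or more did. Of the 100 most abundant genes, 3 did: the fast-fibre genes Actn3 (1998, 3733, 2375 and 1666 CPM) and Mybpc2 (1726, 2860.0, 2104 and 1373 CPM), and Ankrd23, a stretch-responsive ankyrin repeat protein (1451, 2378, 1749 and 1112 CPM). Actn3 and Mybpc2 were highest in replicate 6 and lowest in replicate 8. The widest range within the 30 was that of Myh1, with 9664, 18506, 13009 and 9415 CPM, where replicates 6 and 7 lay above replicates 5 and 8. The narrowest was that of Atp5b, with 8294, 8191, 7879 and 8439.9 CPM.

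**Figure D1:**
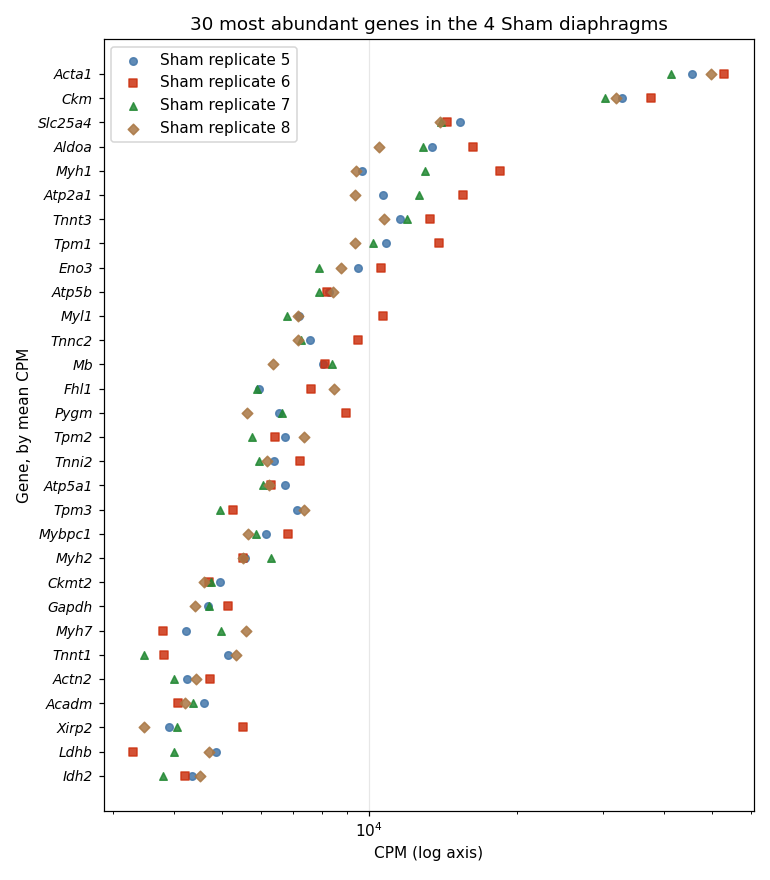
CPM (log axis) of the 30 most abundant genes in each of the 4 Sham animals, ordered by mean CPM; each symbol is 1 animal. Acta1 and Ckm stand to the right of all others, and for most genes the 4 symbols lie close together, with Myh1 the most spread.

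The proximal promoters of Acta1 and Ckm, the leading genes, and of Myh4, the fibre myosin with the widest spread below, are shown to set the most abundant genes beside the most variable fibre myosin. The 120 bases before the start of each gene are from RefSeq, 5′ to 3′ on the gene's strand, in the build of that table and not in that of the counts. Capitals mark the motifs TATAAA and CAGCTG (an E-box, the kind of site bound by MyoD family factors) and the CArG box, to which serum response factor binds, all searched on both strands.
Acta1 (GRCr8, chr19:68784195-68784314, minus strand): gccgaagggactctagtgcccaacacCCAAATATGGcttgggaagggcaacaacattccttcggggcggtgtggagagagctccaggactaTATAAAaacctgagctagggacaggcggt
Ckm (GRCr8, chr1:88189341-88189460, plus strand): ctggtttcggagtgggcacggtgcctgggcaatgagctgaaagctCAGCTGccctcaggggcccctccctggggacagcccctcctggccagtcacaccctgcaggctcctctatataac
Myh4 (GRCr8, chr10:52422028-52422147, plus strand): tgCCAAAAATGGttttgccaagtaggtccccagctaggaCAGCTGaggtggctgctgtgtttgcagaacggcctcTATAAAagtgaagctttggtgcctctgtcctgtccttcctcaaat
The Acta1 window held a TATAAA 29 to 24 bases before the start and a CArG box 94 to 85 bases before it. The Ckm window held a CAGCTG 75 to 70 bases before the start. The Myh4 window held all 3 motifs, and no motif overlapped another in these windows.

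Of the 100 most abundant genes, 87 had a promoter in the table, covering 250 bases before to 50 after the start. CAGCTG was in 28.7% of those 87, against 16.1% of the 8213 promoters of genes averaging 1 CPM or more and 15.1% of all 27457 promoters. TATAAA was in 16.1%, 6.82% and 14.3% of the same sets. The CArG box was in 4.60%, 1.25% and 1.64%, and the MEF2 box, a site of a second muscle factor family, in 5.75%, 1.64% and 3.37%. These shares describe letters in a window, and binding was not measured.

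Myosin heavy chain counts were led by the fast IIX chain. Myh1 made up 48.5, 61.3, 50.1 and 45.1% of the counts of the 8 myosin heavy chain genes read here, a mean of 51.2% ± 7.01. Myh2, the IIA chain, made up 27.9, 18.3, 24.2 and 26.4%, and Myh7, the slow chain, 21.2, 12.6, 19.2 and 26.9%. Replicate 6 had the highest Myh1 share and the lowest Myh2 and Myh7 shares, and replicate 8 had the lowest Myh1 and the highest Myh7 share. These transcripts are close in length and in sequence, so reads can be lost or split between them. In bulk tissue fewer cells of a type and less RNA per cell cannot be told apart.

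Myh4, the IIB chain of the fastest fibres, divided the animals into pairs. It was at 196, 2096, 1434 and 138 CPM, a share of 0.986, 6.94, 5.53 and 0.658%. Replicates 6 and 7 lay above replicates 5 and 8, and the highest value was 15.2 times the lowest. A low and a high pair can be drawn in any gene, and the share of all genes with this split at any gap was not counted. With a gap of at least 1 log2 unit in the middle, 3 of the 6677 genes averaging 10 CPM or more had replicates 5 and 8 low. Another 2 had replicates 6 and 7 low. The SD of 962 CPM was close to the mean of 966 CPM. Retsat, which saturates retinol, and Padi2, an enzyme that converts arginine to citrulline, showed the same split, with 31.9, 127, 147 and 26.8 CPM and 198, 460.4, 481 and 75.5 CPM.

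**Figure D2:**
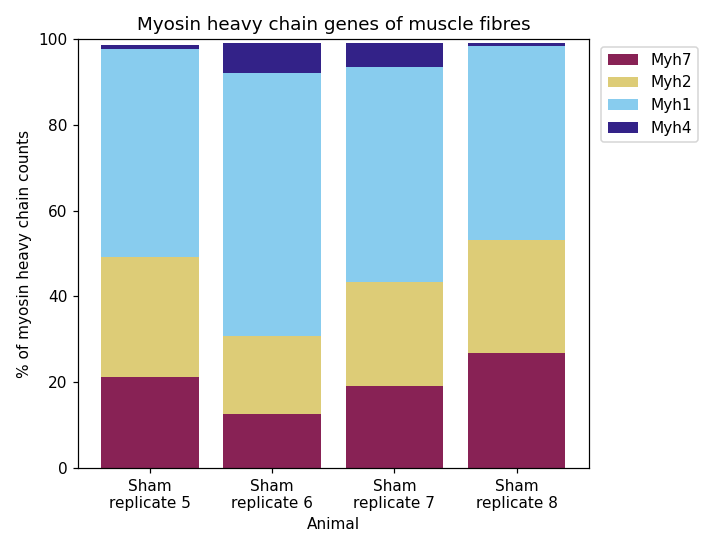
Share of the counts of the 8 myosin heavy chain genes taken by Myh7, Myh2, Myh1 and Myh4 in each Sham animal (stacked bars, percent, 1 bar per animal). Myh1 is the largest block in every bar, and the Myh4 block is visible in replicates 6 and 7.

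Developmental and cardiac chains were minor. Myh3 and Myh8, the embryonic and perinatal chains, were at 134 ± 13.4 CPM and 50.4 ± 16.6 CPM, 0.566% ± 0.0832 and 0.204% ± 0.0265 of the family. Their values were 119, 134, 152 and 133 CPM and 36.6, 73.2, 52.0 and 39.6 CPM. Myh3 kept within 1.27 times between animals and Myh8 within 2.00 times. Myh7b, a slow tonic chain, was at 35.1 ± 5.41 CPM. Myh6, the cardiac alpha chain, was at 71.1, 44.4, 3.28 and 4.92 CPM, with replicates 5 and 6 above replicates 7 and 8 and a 21.7-fold range.

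Slow and fast partner genes of other proteins put the same animals in the 2 lowest places. For 12 proteins the counts of the slow gene were divided by those of the slow and the fast gene together; Mybpc1, Actn2 and Ldhb stood for the slow side although fast fibres also use them. The pairs were taken from the family lists after their values had been seen. In all 12 the slow share was lowest in replicate 6 and second lowest in replicate 7, and it was highest in replicate 8 in 9 pairs and in replicate 5 in 3. All 12 come from the same 4 libraries and so are not independent. The Myh7 share was also lowest in replicate 6, then in replicate 7, and highest in replicate 8.

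In the thin filament, Tnnc1 made up 23.7, 16.4, 20.7 and 25.3% of the troponin C pair, the calcium sensor. Tnni1 made up 25.5, 18.8, 19.5 and 27.1% of troponin I, which holds the filament off, and Tnnt1 30.8, 22.2, 22.6 and 33.3% of troponin T, which anchors the complex. Tpm3, the slow tropomyosin, made up 39.7, 27.5, 32.8 and 44.1% of Tpm3 and Tpm1. In each of the 4, replicate 6 was lower than replicate 8 by 8.25 to 16.6 percentage points. Tpm2, the beta tropomyosin outside the pair, took 27.6% ± 2.26 of the tropomyosin family.

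In the thick filament, Myl3 made up 32.8, 20.7, 28.4 and 34.8% of the essential light chain pair with Myl1, and Myl2 22.6, 15.6, 18.8 and 20.5% of the regulatory pair with Mylpf. Mybpc1, a myosin-binding protein of slow and fast fibres, made up 78.1, 70.4, 73.6 and 80.5% of its pair with the fast Mybpc2. Of these 3 pairs the regulatory one had the smallest range, with 15.6% in replicate 6 and 22.6% in replicate 5. The non-muscle light chain Myl12a made up another 29.1% ± 5.32 of the regulatory light chain counts, and Myl12b 2.10% ± 0.169. In the M-band, Myom1 took 74.4% ± 2.99 and the fast-fibre Myom2 25.6% ± 2.99 of the 2 myomesins read.

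Z-disc, calcium store and metabolic pairs were also lowest in replicate 6 and next lowest in replicate 7. Actn2, alpha-actinin of all fibres, made up 68.0, 55.9, 62.7 and 72.7% of its pair with the fast Actn3, and Myoz2 52.7, 39.3, 50.2 and 52.6% of the calsarcin pair with Myoz1. Atp2a2, the slow-fibre calcium pump, made up 27.2, 14.1, 17.0 and 26.0% against Atp2a1. As in the other pairs, replicates 6 and 7 lay below replicates 5 and 8 in the pump. Casq2, the slow form of the calcium-binding calsequestrin, made up 20.3, 16.1, 18.7 and 22.5%, and Ldhb, the heart type of lactate dehydrogenase, 76.2, 65.8, 74.9 and 78.6% of its pair with Ldha.

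**Figure D3:**
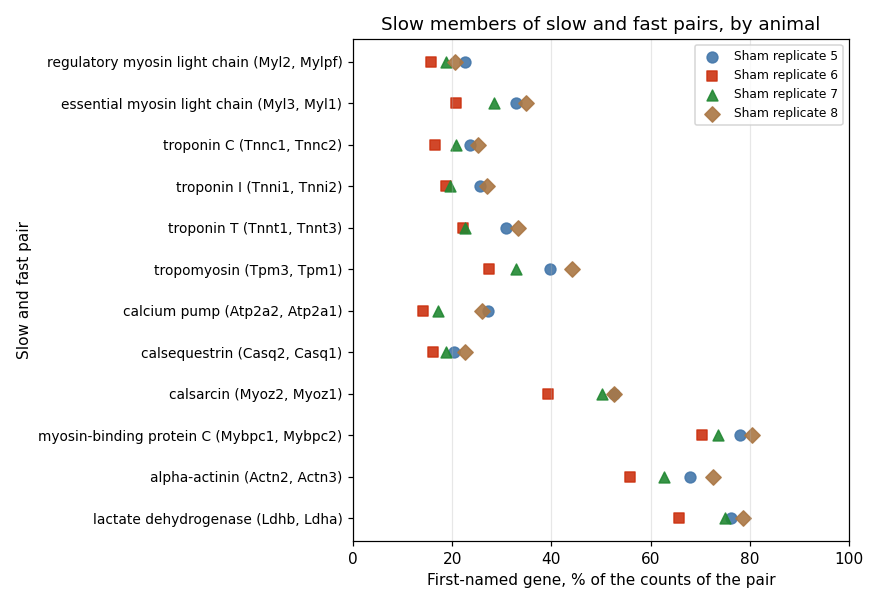
Percent of the counts of each slow and fast pair that fell on the slow gene (first in the brackets), for 12 pairs and 4 Sham animals (1 symbol each). Replicate 6 is the leftmost symbol in every pair and replicate 7 the next.

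Sarcolipin and phospholamban are small inhibitors of the calcium pump, and they differed in their pattern. Sln was at 342, 372, 327 and 753 CPM, with replicate 8 alone at more than 2 times the highest of the others. Pln was lower in CPM, at 42.4, 19.6, 20.6 and 27.9 CPM, with the animals in the order of the calcium pump pair, lowest in replicate 6 and highest in replicate 5. Sln held 93.6% ± 3.25 of the counts of the pair.

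Most other families were held by a single muscle form, with little spread. Acta1 took 97.5% ± 0.262 of the actin counts, and Actb, cytoplasmic actin, 2.07% ± 0.373. Actc1, cardiac alpha-actin, was a minor member that varied, at 137, 276, 39.8 and 33.7 CPM. Replicate 6 was highest, and replicates 7 and 8 were lowest. Cacna1s, the voltage sensor of excitation-contraction coupling, took 99.6% ± 0.0405 of 3 calcium channel genes. Jph1 and Jph2, which tie the transverse tubule to the calcium store, took 76.2% ± 3.38 and 23.8% ± 3.39.

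Among energy enzymes, Ckm took 86.9% ± 1.13 and Ckmt2 12.5% ± 1.07 of creatine kinase counts. Muscle forms also led for enolase (Eno3, 98.6% ± 0.231), aldolase (Aldoa, 99.9% ± 0.0305), glycogen phosphorylase (Pygm, 99.8% ± 0.0595), phosphofructokinase (Pfkm, 98.6% ± 0.343), phosphoglycerate mutase (Pgam2, 93.5% ± 0.919) and AMP deaminase (Ampd1, 97.7% ± 0.859). Slc2a4, the insulin-responsive glucose carrier, took 95.7% ± 0.445 of 5 glucose carriers, with Slc2a12 at 3.80% ± 0.346. Hk2 took 84.8% ± 2.26 and Hk1 14.9% ± 2.26 of hexokinase. For lactate transport the oxidative carrier Slc16a1 took 74.5% ± 2.54 and the glycolytic Slc16a3 20.2% ± 3.42. For fat, Cpt1b, which admits fatty acids to mitochondria, took 94.7% ± 0.382 of its family and Fabp3, the muscle fatty acid binding protein, 91.1% ± 0.867.

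Some families were shared. Pdk4 and Pdk2, kinases that switch off pyruvate dehydrogenase, took 62.9, 46.6, 54.1 and 42.6% and 34.3, 51.1, 42.4 and 52.3%, with Pdk4 the larger in replicates 5 and 7 and Pdk2 in replicates 6 and 8. Capn3 and Capn2, calcium-activated proteases, took 47.8% ± 1.42 and 40.9% ± 1.85. Dmd and its relative Utrn took 44.5% ± 4.00 and 55.5% ± 4.00. Ppargc1a and Ppargc1b, coactivators of mitochondrial genes, took 48.7% ± 5.37 and 36.5% ± 3.21. Of the myogenic factors, Myf6 took 79.7% ± 5.87, Myog 10.6% ± 4.87, Myod1 6.26% ± 0.870 and Myf5 3.42% ± 0.888. Hspb6, Cryab and Hspb7 led the small heat shock proteins with 38.2% ± 3.42, 31.7% ± 3.49 and 22.6% ± 3.00.

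Some genes that many cells use were listed at or near 0 in all 4 libraries. Myl6, a non-muscle light chain, Col1a2, a collagen chain, and Atp5f1, an ATP synthase subunit, were listed at 0, and Hspa8, a constitutive chaperone, was at 0.399 ± 0.153 CPM. Of 69 ribosomal protein genes, 5 were listed at 0. A value of 0 in these libraries is therefore given as listed and not as a lack of the transcript. The brown fat gene Ucp1 and the atrial light chain Myl7 were also listed at 0.

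Whole pathways of energy metabolism were even between animals. The summed level of the 34 complex I subunits read was 16410.3, 14997, 14598 and 14952 CPM, with Ndufs1 (1848 CPM) and Ndufa9 (1569 CPM) the most abundant. The 22 genes of complexes II to IV, led by Sdha (2093 CPM), Uqcrc2 (2087 CPM) and Sdhc (1605 CPM), summed to 20599.5, 18574, 18474 and 19441 CPM. None of these genes, of 15 ATP synthase genes and of 18 citrate cycle genes with a mean of at least 1 CPM had a highest library of 2 times the lowest or more. All of them averaged at least 10 CPM, where 4.54% of all genes did, against 12.0% of all genes with a mean of at least 1 CPM. Atp5c1, another subunit of ATP synthase, was at 2272 CPM, and the citrate cycle enzyme Mdh1 was at 3892 CPM. By mean log2 CPM all 4 lists were highest in replicate 5, by 0.08 (citrate cycle) to 0.20 (ATP synthase) log2 units over the lowest animal.

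In fatty acid uptake and oxidation 3 of 26 genes reached 2 times, a share near the 12.0% of all genes at 1 CPM or more. At 10 CPM or more 2 of 25 did (8.0%), against 4.54% of all genes at that level. The 3 were Pdk4 (976, 538, 681 and 428 CPM), Ucp3, a muscle uncoupling protein (251, 168, 323 and 159 CPM), and Angptl4, an inhibitor of lipoprotein lipase (5.87, 3.11, 10.4 and 6.89 CPM). Hadhb and Lpl, an oxidation enzyme and the lipase of capillary walls, were at 3498 ± 279 CPM and 2470.4 ± 357 CPM. In glycolysis and glycogen use 1 of 25 reached 2 times, Phka1, a subunit of the kinase that activates phosphorylase (176, 247, 245 and 118 CPM). The summed glycolytic level was 54263, 61198, 50742 and 47012 CPM, highest in replicate 6 and lowest in replicate 8.

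Few ribosomal and proteasome genes reached 2 times, and most of these genes averaged 10 CPM or more, where 4.54% of all genes did. Of 63 ribosomal protein genes with a mean of at least 1 CPM, 1 reached 2 times, Rps2 (65.9, 44.6, 95.5 and 80.2 CPM), and of 31 proteasome genes none did. Of all genes with that mean, 12.0% did. Rplp0 and Rpl4 were at 531 ± 22.4 CPM and 395 ± 15.3 CPM. Psmd1, Psmd2 and Psmc5 were at 484 ± 55.6 CPM, 436 ± 48.6 CPM and 397 ± 20.7 CPM. In the antioxidant list 1 of 27 did, Srxn1 (8.66, 21.1, 11.7 and 9.47 CPM), with Sod2 at 1475 ± 61.8 CPM, Prdx3 at 1474 ± 76.3 CPM and Gpx1 at 942 ± 191 CPM. In the heat shock list 2 of 22 did, near the 12.0% of all genes, Xbp1 and Hspa1b (3.89, 4.47, 2.51 and 5.29 CPM for Hspa1b), with Hsp90ab1 at 1731 ± 62.8 CPM and Hspa5 at 697 ± 64.0 CPM. In the atrophy list 2 of 21 did, also near it, with Ube2b at 1724 ± 97.4 CPM and Nedd4 at 1142 ± 86.0 CPM, and those that did were Mstn, which restrains muscle growth (9.40, 19.4, 8.87 and 6.27 CPM), and Ankrd1 (8.66, 10.03, 7.10 and 4.18 CPM). At 10 CPM or more 1 of 21 heat shock genes and 1 of 19 atrophy genes did, near the 4.54% of all genes at that level. At the same level 1 of 62 ribosomal (1.61%), 0 of 31 proteasome and 1 of 25 antioxidant genes (4.0%) did. Counts this small do not rank these lists against that share.

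At the median over genes, spread exceeded counting error. For genes with a mean of at least 1 CPM the median coefficient of variation (CV, the SD over the mean) was 12.0%, where counting alone would give 6.24%. At 100 CPM or more it was 8.16% against 1.96%. The SD of log2 CPM had a median of 0.17, and the common biological coefficient of variation, which edgeR estimates after removing counting error, was 16.5%. Among genes with a mean of at least 100 CPM the steadiest were Mrpl17 (267, 265, 267 and 269 CPM), Sgta (184, 187, 184 and 183 CPM) and Cox7a2l (193, 191, 194 and 195 CPM). Mgst3, Hrasls, Gnb2l1, Cpt1b, Rnf10, Tpt1 and Hsp90b1 followed, each with a highest library of 1.03 or 1.04 times the lowest.

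**Figure D4:**
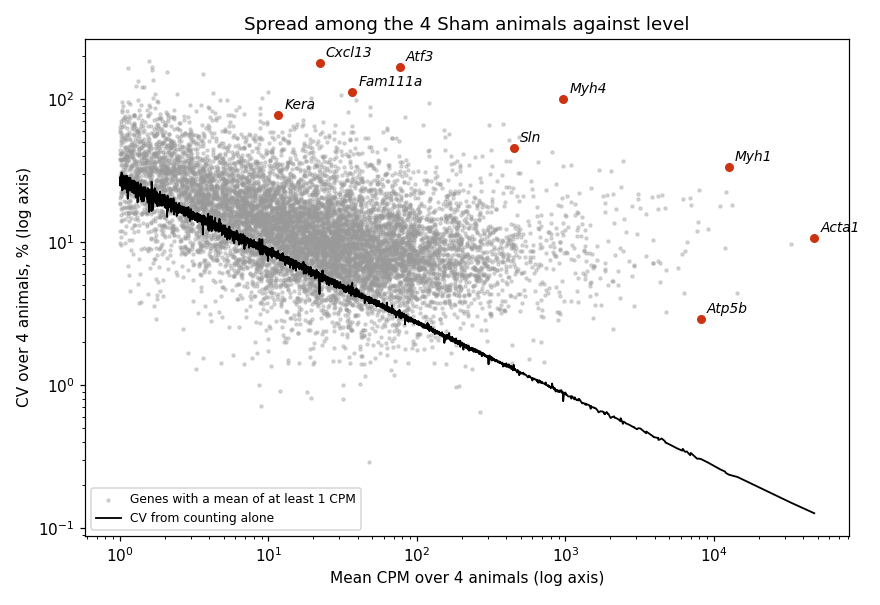
CV over the 4 Sham animals (percent, log axis) against mean CPM (log axis) for each gene with a mean of at least 1 CPM; the line is the CV from counting alone. Most genes lie above the line, and Fam111a, Cxcl13, Atf3, Kera and Myh4 lie far above it, while Atp5b has the lowest CV of the genes marked.

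Among genes with a mean of at least 10 CPM, some of those with the widest spread fell close to the floor in 1 animal or more. Fam111a, a protease that acts at DNA replication, was at 68.3, 1.10, 1.54 and 75.9 CPM, with replicates 5 and 8 high and replicates 6 and 7 low. Ifit1, an interferon-induced gene, was at 6.53, 30.9, 0.270 and 17.3 CPM, and only replicate 7 was near 0. Of the 6677 genes with a mean of at least 10 CPM, 19 split into pairs with a gap of at least 1 log2 unit in the middle. Every way of pairing the animals occurred among them. Fam111a, Kera, Myh4, Retsat and Padi2 shared the split of replicates 6 and 7 against 5 and 8, the first 2 with replicates 6 and 7 low and the others with them high. In Kera the widest gap, 3.87 log2 units, set replicate 6 alone below the rest, against 1.16 in the middle. In Padi2 it was 1.39, with replicate 8 alone lowest, against 1.21 in the middle. Cish, a cytokine-induced inhibitor of signalling, Csrp3, a Z-disc protein, and Mybph, a relative of myosin-binding protein C, put replicates 6 and 8 above 5 and 7, with 4.33, 37.3, 5.94 and 29.5 CPM, 7.12, 61.7, 13.4 and 55.8 CPM and 22.3, 106, 10.4 and 56.0 CPM.

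Others of the widest 20 had their lowest value in 1 animal or in a pair. Mrpl43, a mitochondrial ribosomal protein, was at 34.7, 4.79, 31.9 and 31.5 CPM and Med30, a subunit of Mediator, at 12.3, 4.34, 29.2 and 21.4 CPM, both lowest in replicate 6. Pla2g2a, a secreted phospholipase, was at 87.8, 9.13, 70.7 and 24.8 CPM, lower in replicates 6 and 8, and Cyp2j4, a cytochrome P450, at 35.6, 26.3, 6.75 and 12.2 CPM, lower in replicates 7 and 8. Chrne, the adult subunit of the acetylcholine receptor, was at 11.7, 12.1, 2.47 and 15.9 CPM, lowest in replicate 7. Its embryonic counterpart Chrng was at 0.931 ± 0.283 CPM.

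In 554 genes with a mean of at least 1 CPM, 5.44% of them, 1 library stood apart by Dixon's criterion (its gap to the nearest of the others, over the whole range of log2 CPM, passed the 95% critical value for 4 samples), and in 362 with at least 10 CPM, 5.42%. Chance gives about 1 gene in 20 by this criterion. By library the 554 were 126, 129, 124 and 175 genes for replicates 5, 6, 7 and 8. After thinning all libraries to the smallest, replicate 8, the counts for replicates 7 and 8 were 209 and 108.

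Of the genes named for their wide spread or for 1 library apart, several were highest in replicate 6, and no list of such genes was tested. They included Ifit1, Myh4, Cish, Csrp3, Mybph and Actc1, given above, with genes of the filaments and the Z-disc among them. Atf3, Dusp10, Hbegf and Tnfrsf12a were also highest there. Atf3, a stress-induced transcription factor, was at 10.9, 268, 11.3 and 16.4 CPM, 24.5 times higher in replicate 6 than in the lowest animal. Dusp10, which switches off stress kinases, was at 113, 282, 116 and 109 CPM. Hbegf, a growth factor, and Tnfrsf12a, a receptor induced in injured muscle, were at 11.7, 48.4, 13.2 and 4.30 CPM and 16.8, 95.3, 27.9 and 15.4 CPM. Pigq, in anchor synthesis, was also high there (25.8, 50.4, 25.1 and 24.2 CPM), and Fam101b (18.3, 7.96, 20.8 and 20.7 CPM) was low.

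Of 21 immediate early genes with a mean of at least 1 CPM, 14 reached 2 times between animals, against 12.0% of all genes. Of the 21, 13 were highest in replicate 6, 6 in replicate 7 and 2 in replicate 8. Without replicate 6 the number was 9, as it also was without replicate 5 or without replicate 7. With the scaling held fixed, leaving out a library can only lower this number. Btg2 was at 62.5, 217, 89.2 and 70.2 CPM, Klf6 at 84.8, 120.5, 99.2 and 92.3 CPM and Fos at 18.4, 49.3, 31.2 and 12.5 CPM. Not all peaked in replicate 6: Dusp1, a phosphatase, was at 43.3, 44.8, 101 and 55.5 CPM and Egr1 at 1.10, 2.27, 4.55 and 0.984 CPM, highest in replicate 7. The mean log2 level of the list was 3.11, 4.15, 3.76 and 3.51.

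Lymphocyte and macrophage genes were highest in replicate 7, which was also the largest library (24967251 counts). Over the 15 lymphocyte genes read, with no minimum level, the summed level was 24.4, 28.8, 92.2 and 26.6 CPM, and all 15 were highest in replicate 7. Of the 9 with a mean of at least 1 CPM, 6 reached that mean only through replicate 7, so their spread followed from the minimum and is not counted. Most lymphocyte genes were near or under 1 CPM elsewhere, where counting error is large. Of 13 macrophage genes with a mean of at least 1 CPM, 11 reached 2 times, against 12.0% of all genes, and 1 did without replicate 7. None of the 13 depended on replicate 7 for that mean, and all 13 were highest there. Ptprc, the leukocyte marker CD45, was at 13.4, 15.7, 39.3 and 14.1 CPM. Cxcl13, which attracts B cells into lymphoid follicles, was at 3.08, 3.82, 80.9 and 0.615 CPM, and the B cell genes Ms4a1 and Cd79b were at 0.147, 0.130, 5.90 and 0.123 CPM and 0.441, 0.453, 6.94 and 0.492 CPM. In Ms4a1 the other 3 libraries were at or below 3 counts. Cd4 and Lck, T cell genes, were at 4.55, 7.12, 10.2 and 6.15 CPM and 1.40, 1.55, 5.75 and 2.09 CPM.

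Macrophage and antigen presentation genes were also highest in replicate 7. Lyz2, lysozyme, was at 50.3, 62.6, 130.3 and 47.1 CPM, C1qb, a complement subunit, at 20.8, 30.1, 67.4 and 26.3 CPM, and Mrc1, the mannose receptor of resident macrophages, at 22.8, 26.9, 36.0 and 25.6 CPM. Cd74, the class II invariant chain, was at 99.5, 149, 255 and 120.0 CPM, RT1-Da at 45.4, 65.3, 95.1 and 51.1 CPM and RT1-Db1 at 20.04, 28.7, 42.8 and 25.8 CPM. In contrast, RT1-Bb, another class II gene, was at 6.31, 10.5, 0 and 18.1 CPM, listed at 0 in the same library. Of 7 mast cell genes 4 reached 2 times, Tpsb2 (12.3, 22.6, 28.0 and 12.2 CPM), Tpsab1, Kit and Hdc, against 12.0% of all genes. The number was 2 without replicate 7 or without replicate 8. At 10 CPM or more 1 of 3 did, against 4.54% of all genes. The mast cell proteases Cpa3 and Cma1 were at 38.6 ± 5.61 CPM and 25.2 ± 3.85 CPM, and the neutrophil gene S100a9 was at 1.84 ± 0.783 CPM.

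Replicate 7 stood apart in a few further genes. Bdh1, which interconverts ketone bodies, was high (40.5, 43.3, 87.8 and 42.5 CPM), and Ros1, a receptor kinase, and Dhx36, a helicase, were low (30.8, 30.04, 17.7 and 31.5 CPM, and 139, 144, 82.6 and 149 CPM). Pmp22, Cnp and S100b, of Schwann cells, were at 83.5, 82.2, 75.8 and 106 CPM, 14.5, 31.2, 20.6 and 22.9 CPM and 14.1, 11.1, 10.4 and 7.50 CPM, and were not lowest together in 1 animal.

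Replicate 8 had the highest mesothelial genes. Msln, mesothelin, was at 76.2, 102, 106 and 197 CPM, Upk1b, a uroplakin, at 26.7, 24.99, 22.8 and 47.2 CPM, and the keratins Krt19 and Krt8 at 24.1, 21.8, 23.8 and 42.2 CPM and 8.52, 10.9, 14.3 and 35.3 CPM. In each, replicate 8 lay above the other 3. Of 6 mesothelial genes with a mean of at least 1 CPM, 4 reached 2 times (Msln, Upk1b, Krt8 and Krt18), against 12.0% of all genes, and 0 did without replicate 8. At 10 CPM or more 3 of 5 did, against 4.54% of all genes. Wt1, a transcription factor of mesothelium, did not follow, at 13.1, 10.2, 13.7 and 13.7 CPM.

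Lymphatic, matrix and blood genes leaned the same way in that animal. Ccl21, a chemokine of lymphatic vessels, was at 128, 187, 178 and 289.7 CPM, Lyve1 at 59.2, 79.7, 109.8 and 112 CPM and Pdpn, found in lymphatic endothelium and mesothelium, at 17.4, 17.3, 18.6 and 32.3 CPM. Dcn, Gsn and Col3a1, of fibroblasts, were at 1269, 1029, 1183 and 1398 CPM, 1021, 1282, 1316 and 1184 CPM and 337, 369, 351 and 545 CPM. Sparc, a matrix protein, was at 543.5, 417, 434 and 520 CPM, highest in replicate 5. The globin genes Hbb, Hba1 and Hba2 were at 102, 106, 96.0 and 160.0 CPM, 98.3, 90.4, 87.9 and 133 CPM and 38.5, 39.4, 33.0 and 58.9 CPM. Except for Gsn and Sparc, replicate 8 was highest in each of those genes. Of 25 matrix genes with a mean of at least 1 CPM, 18 were highest there, while Fn1, fibronectin, was lowest there (68.6, 75.55, 89.9 and 52.75 CPM). Globin copies are nearly identical, so the split between Hba1 and Hba2 is uncertain. This library was also the smallest, at 7941402 counts.

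Besides Sln, Apobec2, a muscle member of a deaminase family, was also highest there, at 677, 653, 595 and 1328 CPM. Eif4e3, a translation factor, was low (77.0, 81.0, 81.1 and 43.8 CPM). In replicate 5, Myl4, the atrial and embryonic light chain, was high (31.3, 9.84, 11.4 and 10.2 CPM), and Flrt2 (5.73, 11.5, 11.8 and 13.2 CPM), Reln (10.8, 19.2, 19.7 and 18.8 CPM), Nt5dc1 (9.32, 16.1, 15.8 and 15.7 CPM) and Phospho1 (70.1, 111, 119 and 114 CPM) were low.

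Of 6 tendon genes with a mean of at least 1 CPM, 5 were lowest in replicate 6. Kera, keratocan, was at 18.9, 0.453, 8.33 and 18.8 CPM, and Tnmd and Chad, of tendon and cartilage, at 5.36, 0.194, 2.51 and 3.44 CPM and 12.1, 0.906, 8.25 and 3.07 CPM. Thbs4 and Fmod were at 43.3, 22.1, 31.1 and 44.5 CPM and 34.8, 17.4, 19.4 and 34.2 CPM. Scx, a tendon transcription factor, was lowest in replicate 7, at 4.48, 3.50, 2.82 and 3.57 CPM. The mean log2 level of the list was 3.85, 1.35, 3.06 and 3.37. Of the 6, 4 reached 2 times (Thbs4, Kera, Chad and Tnmd), against 12.0% of all genes, and 3 did without replicate 6. At 10 CPM or more 2 of 3 did, against 4.54% of all genes.

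Fat genes were higher in replicates 6 and 7. Adipoq, adiponectin, was at 26.1, 52.3, 36.4 and 14.6 CPM, and Lep, leptin, at 0.954, 2.65, 2.93 and 0.738 CPM. In both, replicates 6 and 7 lay above replicates 5 and 8, a split whose share over all genes was not counted. Of 10 fat genes with a mean of at least 1 CPM, 6 reached 2 times (Adipoq, Lep, Cfd, Cidec, Retn and Plin1), against 12.0% of all genes, and 4 did without replicate 7 or without replicate 8. At 10 CPM or more 2 of 5 did, against 4.54% of all genes. Of the same list, Car3 (3468, 4949, 3163 and 3696 CPM) and Fabp4 (203, 158, 164 and 142 CPM) are also genes of muscle fibres and capillaries and did not split this way. Cox8b and Cidea, listed for brown fat, were at 414 ± 43.5 CPM and 28.5 ± 6.26 CPM.

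**Figure D5:**
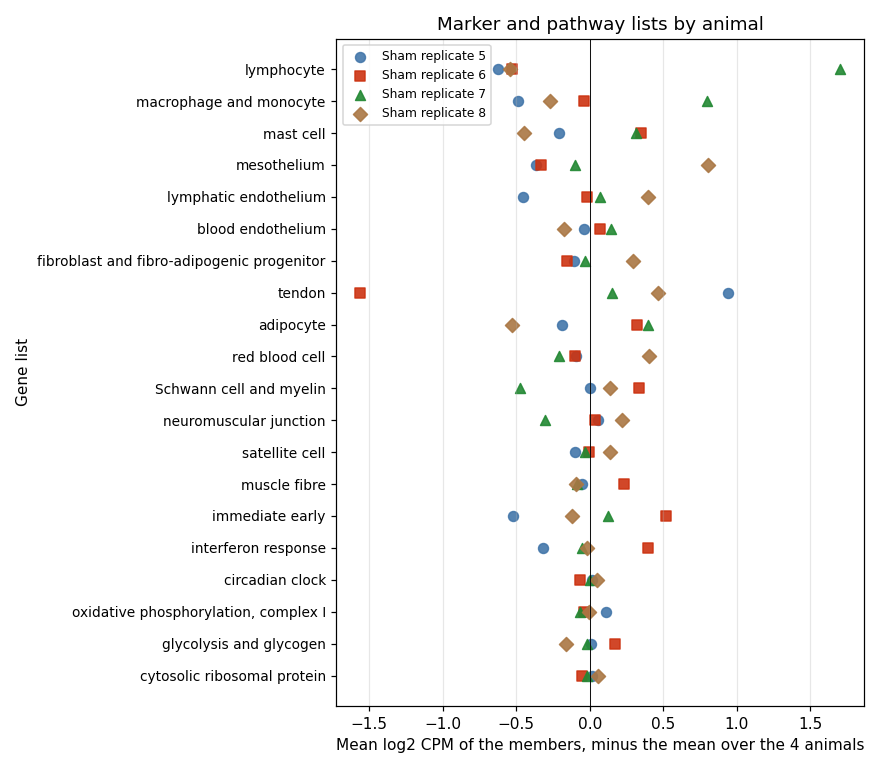
Mean log2 CPM of the members of 20 marker and pathway lists (members with a mean of at least 1 CPM) in each Sham animal, minus the mean over the 4 animals. Replicate 7 lies far to the right for lymphocyte and macrophage genes, replicate 8 for mesothelium and replicate 6 far to the left for tendon, while the complex I, circadian and ribosomal lists stay near 0. For the circadian list this holds for the mean only, as 7 of its 16 members reached 2 times between animals. In the lymphocyte list 6 of the 9 members reached that minimum only through replicate 7.

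Few vessel genes reached 2 times between animals. Aqp1, Kdr and Pecam1, of capillary endothelium, were at 103 ± 18.4 CPM, 68.9 ± 4.63 CPM and 62.9 ± 7.15 CPM. Of 12 endothelial genes, all with a mean of at least 10 CPM, 1 did, the growth factor receptor Flt1 (22.8, 21.6, 29.4 and 13.8 CPM). At that level 4.54% of all genes did, and 1 gene is too few to rank the list against that share. The median SD of log2 CPM was 0.197 in the list and 0.136 in all genes at that level. Des, a muscle intermediate filament listed with smooth muscle, was at 2689.8 ± 198 CPM, and Abcc9 and Lmod1 were at 181 ± 9.69 CPM and 108 ± 12.9 CPM. Heyl, Chodl and Cdh15, of satellite cells, were at 36.3 ± 6.18 CPM, 34.1 ± 4.18 CPM and 17.7 ± 2.15 CPM. Of 8 satellite cell genes 3 reached 2 times, Vcam1, Calcr and Megf10, against 12.0% of all genes at 1 CPM or more. At 10 CPM or more 1 of 5 did, against 4.54%. At the neuromuscular junction 3 of 12 did, Chrnd, Etv5 and Chrne, and at 10 CPM or more 3 of 11. There, Prkar1a and Chrnb1 were at 197 ± 36.7 CPM and 77.3 ± 5.45 CPM, and Chrnd, the delta subunit of the receptor, was at 121, 39.5, 59.9 and 50.8 CPM, highest in replicate 5. Xbp1, a secretory cell factor, was at 114, 55.4, 161 and 152 CPM, lowest in replicate 6, and Sdc1 and Mzb1, of plasma cells, at 5.03 ± 1.40 CPM and 3.57 ± 2.35 CPM.

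Skeletal muscle markers were high, and most liver and lung markers were at or near 0, while some heart genes were read. All 6 muscle fibre markers read were between 2198 CPM and 47402 CPM. The liver genes Alb, Apoa1, Ttr and Fgb were at 0.0734, 0.518, 0.154 and 0 CPM, 0.147, 0.130, 0.308 and 0.738 CPM, 0, 0, 0.0771 and 0 CPM and, for Fgb, listed at 0 in every library. Tf, transferrin, on the same list, was at 115 ± 16.6 CPM, and Cyp2e1 at 4.44 ± 2.25 CPM. Of the lung genes, Sftpc and Nkx2-1 had 1 count each in replicate 7 and none elsewhere, and Ager was at 2.25 ± 0.384 CPM. Of 11 heart genes, which summed to 190, 144, 118 and 141 CPM, Myh6 and Myl4 are given above, and the cardiac troponins Tnni3 and Tnnt2 were at 20.6, 6.02, 10.1 and 18.0 CPM and 11.5, 21.9, 4.32 and 11.6 CPM. The natriuretic peptide genes Nppa and Nppb had 1 count each, in replicate 5, and Mybpc3 was at 0.126 ± 0.0652 CPM, while Gja1, a gap junction gene of many cell types, was at 73.7 ± 20.03 CPM.

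Clock and hormone-responsive genes also differed between the animals. Nr1d1, a repressor of the clock, was at 77.1, 44.7, 21.6 and 109 CPM, and Arntl, which it represses, at 45.5, 55.0, 86.9 and 55.7 CPM. Replicate 7 was lowest in the first and highest in the second. Per3 and Dbp were at 21.5, 11.6, 7.02 and 18.4 CPM and 20.8, 9.84, 12.7 and 18.6 CPM. Replicates 5 and 8 lay above 6 and 7 in both, a split whose share over all genes was not counted. Of 16 clock genes 7 reached 2 times, against 12.0% of all genes, and 4 did without replicate 7. At 10 CPM or more 5 of 12 did, against 4.54% of all genes. The most abundant, Bhlhe40, was at 93.9 ± 7.19 CPM. The hour of tissue collection is not in the labels.

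Of glucocorticoid-responsive genes, Glul, glutamine synthetase, was at 1398, 1764, 1747 and 1011 CPM and Tsc22d3 at 505, 451, 576 and 473 CPM. Fkbp5, a co-chaperone of the hormone's receptor, was at 25.3, 19.2, 41.6 and 12.8 CPM, highest in replicate 7 and lowest in replicate 8. In the interferon list 10 of 24 genes reached 2 times, against 12.0% of all genes, and 4 did without replicate 6. Of those 24 genes, 15 were highest in replicate 6 and 7 in replicate 7. At 10 CPM or more 5 of 14 genes of the list reached 2 times, against 4.54% of all genes. Of its abundant genes, Ifi27 and Ifit2 were at 197, 244, 127 and 216 CPM and 27.2, 39.4, 43.7 and 24.8 CPM. Ifi27 was lowest in replicate 7, where Ifit2 was highest.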

How the data were processed

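Per the labels' protocols, RNA extracted with TRI Reagent went into libraries by the SMARTer Ultra Low input and KAPA Hyper kits. The deposited values are raw read counts, whole numbers with 1 row per gene symbol, which the authors left without normalization. The submitters' processing notes list Cufflinks, TopHat2, TopHat, STAR 2.5.0a and bcl2fastq, and build rn5, with no roles. Not given in the sources used here: how reads were counted, with which annotation and strand setting, and what became of multi-mapping reads. Near-identical copies may therefore share or lose reads, and a gene's reads cannot be separated from those of an antisense or overlapping gene. Of 17055 rows, 3448 were 0 in all 4 Sham libraries, and 25 had symbols turned into dates (0.104% of the counts). Those 25 stayed in the totals and are not named. Against RefSeq (GRCr8), 14175 symbols were current, 2369 were older synonyms and 486 did not match.

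TMM factors were computed over the 4 Sham libraries with edgeR 4.0.16 in R 4.3.3, log2 CPM with a prior count of 2, and the biological coefficient of variation from an intercept-only fit. As a check for a library deposited more than once, each pair was compared with sampling noise. No pair agreed within it (a chi-square of 12.1 to 30.2 for each degree of freedom), and the labels name each library as a separate animal. With 1 group there was no test. Shares are shares of counts within an animal, because transcript lengths were not used here. A gene counted as varying when its highest library was at least 2 times its lowest, and the share of all genes that did is the background. The calculations were tested on simulated data. Depth sets the precision, and the CV that counting alone gives is printed beside the spread; it covers counting error only.

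The members and the 51 families and 38 gene lists were chosen with earlier results of these data known. Named genes are the 30 most abundant, family members with at least 1% of their family or at or near 0, the 3 most abundant of each list, the 20 widest (mean of at least 10 CPM), the 10 narrowest (at least 100 CPM) and, for each animal, the 5 that set it apart most. Others, such as Ms4a1, Cd79b, Krt8, Tnmd, Chad, Lep, Fos, Egr1, Dusp1, Per3, Dbp, Fkbp5, RT1-Bb and the members named because they varied, were chosen after their values were seen. Some genes that the rule names are not reported here. The alternatives were library totals, RLE factors, thinning to the smallest library, other filters, thresholds and prior counts, summed counts, and leaving out each animal. Recounting the varying members of each list under these settings was added after seeing the data.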

Additional observations from a re-analysis of the deposited data

Results flagged for a closer look

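In 43 of 391 sets of 4 values named above (11.0%), the gap between 1 animal and the nearest of the other 3, over the whole range, passed Dixon's 95% critical value. The gap is relative to the range and can be small: in Mgst3 and Hsp90b1 the CV over animals (1.29% and 1.497%) was below that from counting alone (1.78% and 1.56%). Chance gives about 1 in 20, and 20 of the genes were named because of such a gap. No cause was tested.

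Replicate 6 was high in Myl1 (10674 CPM), Myoz1 (1239 CPM), Pdk2 (591 CPM), Nedd4 (1271 CPM), Mgst3 (241 CPM), Atf3 (268 CPM), Dusp10 (282 CPM) and Pigq (50.4 CPM), and in the mean log2 CPM of the muscle fibre markers (13.60). It was low in Mrpl43 (4.79 CPM), Fam101b (7.96 CPM), Wt1 (10.2 CPM) and the Myl12a share of regulatory light chains (21.2%, against 31.3% to 32.0% in the others).

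Replicate 7 was high in Myh2 (6291 CPM, against 5514 to 5567 CPM), Ptprc (39.3 CPM), Ms4a1 (5.90 CPM), Cd79b (6.94 CPM), Bdh1 (87.8 CPM) and Pecam1 (73.6 CPM), and in the mean log2 CPM of the lymphocyte list (2.59, against 0.27 to 0.37), where 6 of the 9 members reached the minimum of 1 CPM only through replicate 7. It was low in Chrne (2.47 CPM), Ros1 (17.7 CPM) and Dhx36 (82.6 CPM). Ttr (0.0771 CPM), Sftpc (0.0386 CPM) and Nkx2-1 (0.0386 CPM) had 1 or 2 counts there and 0 elsewhere, which is below the floor of 3 counts.

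Replicate 8 was high in Sln (753 CPM), Apobec2 (1328 CPM), Krt19 (42.2 CPM), Pdpn (32.3 CPM) and Hsp90b1 (317 CPM, against 307 to 308 CPM). It was low in Mb (6366 CPM), Eif4e3 (43.8 CPM), Kdr (62.0 CPM) and the Ucp3 share of uncoupling proteins (78.5%).

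Replicate 5 was high in Myl4 (31.3 CPM) and Atp5c1 (2484 CPM), and low in Flrt2 (5.73 CPM), Reln (10.8 CPM), Nt5dc1 (9.32 CPM) and Phospho1 (70.1 CPM). Nppa and Nppb had 1 count each there (0.0734 CPM) and 0 elsewhere.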

How the results depend on the processing

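The number of genes with a highest library of at least 2 times the lowest depended most on the setting. At a mean of at least 1 CPM it was 1225, and 742 to 920 when 1 animal was left out, lowest without replicate 7 (742) and without replicate 8 (815). It was 1801 after thinning to the smallest library, which counts as unchanged by the 1.5 times criterion used below. It was 3026 at a ratio of 1.5, 414 at a ratio of 3 and 2427 with a count in every library in place of the filter. At a mean of at least 10 CPM it was 303, and 178 to 253 when 1 animal was left out, with 178, 184 and 199 without replicates 6, 7 and 8. It was 348 after thinning, 1007 at a ratio of 1.5 and 79 at a ratio of 3. With the scaling and the genes held fixed, fewer animals can only narrow a range, by construction. Both the scaling and the filter on the mean were redone without the animal, so a gene could also enter the number. Thinning moved the genes that set replicate 7 apart from 124 to 209 and those for replicate 8 from 175 to 108.

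The other main values kept within 1.5 times or 1 SD: the genes at 1000 CPM or more, the first 30 genes (29 or 30 shared under each setting), the share of the first 10, the 4 myosin shares, the median SD and the genes with any library apart. For the remaining results, which are levels of named genes, shares and list counts, 128 of 2467 recalculated values were classed as moved. Levels and shares per kilobase, planned as alternatives, were not run, because transcript lengths were not used here. No paired analysis was possible because there is 1 group. With the smallest library at 7941402 counts, levels under 0.369 CPM there rest on fewer than 3 counts.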
